A study of Homo sapiens with 10 samples.

Results

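The surface molecules followed here let cells hold on to each other or to the matrix: VCAM1, ICAM1, CD44, L1CAM, NRCAM, ALCAM and NCAM1. They were chosen by name, with their responses in these same data already known, and they make up 7 of the 22432 genes with a named probe set. Together they have 8 probe sets, 1 for each gene and a second for CD44. The cells were human 786-O cells, an established clear-cell kidney cancer line without working VHL, and expression was read on Affymetrix arrays. One deposited table compared 2 hairpins targeting the transcription factor ZHX2 with a scrambled hairpin. The other compared a hairpin targeting p65, the product of RELA and part of NF-kB, with a control hairpin.

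All 5 groups of 2 arrays came from cells infected with lentivirus and kept under puromycin selection at 2 ug/ml, the controls included. The first table holds scrambled (Scr) cells and those with ZHX2 hairpin 44 or 45, and the second holds Ctrl shRNA and p65 shRNA. How Ctrl shRNA relates to Scr, the sequences of the hairpins, the promoter driving them and the time after infection were not given in the sources used here, and each knockdown rests on 1 cell line. Whether the replicates are separate cultures is unstated, and a p-value then reflects only how far these arrays vary, which may be technical. With bulk RNA, fewer cells that express a gene and less of its RNA per cell cannot be told apart.

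VCAM1 and ICAM1 are immunoglobulin-superfamily receptors best known on inflamed endothelium, where they hold leukocytes through the integrins VLA-4 and LFA-1, and both are textbook NF-kB targets. CD44 is the main receptor for the matrix polysaccharide hyaluronan and also binds osteopontin. L1CAM and NRCAM belong to the L1 family of neural adhesion molecules, ALCAM is the ligand of CD6, and NCAM1 is a homophilic adhesion molecule of neurons, natural killer cells and the developing kidney.

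The stretches of 250 bases upstream of the RefSeq transcription starts (GRCh38.p14) are shown for the 4 genes that differed most over both ZHX2 hairpins (with p65 shRNA, L1CAM and NCAM1 differed more than ICAM1), because NF-kB subunits bind sequences of the kappaB type. RefSeq windows were matched for 6 of the 7 genes, with NCAM1 unmatched. Capitals mark each match to GGNNNTTCC or GGGNNNCCC on either strand, written 5′ to 3′ along the gene.
VCAM1, chr1:100719492-100719741, plus strand: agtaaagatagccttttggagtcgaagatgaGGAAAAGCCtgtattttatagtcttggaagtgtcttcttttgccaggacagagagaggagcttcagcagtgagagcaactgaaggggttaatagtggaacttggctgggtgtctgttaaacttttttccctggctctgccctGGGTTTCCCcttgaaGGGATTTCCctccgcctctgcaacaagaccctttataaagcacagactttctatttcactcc
ICAM1, chr19:10270870-10271119, plus strand: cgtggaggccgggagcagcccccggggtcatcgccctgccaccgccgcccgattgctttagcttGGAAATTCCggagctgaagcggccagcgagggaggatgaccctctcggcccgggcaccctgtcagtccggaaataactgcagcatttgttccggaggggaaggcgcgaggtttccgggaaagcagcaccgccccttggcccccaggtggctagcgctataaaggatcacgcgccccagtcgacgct
CD44, chr11:35138921-35139170, plus strand: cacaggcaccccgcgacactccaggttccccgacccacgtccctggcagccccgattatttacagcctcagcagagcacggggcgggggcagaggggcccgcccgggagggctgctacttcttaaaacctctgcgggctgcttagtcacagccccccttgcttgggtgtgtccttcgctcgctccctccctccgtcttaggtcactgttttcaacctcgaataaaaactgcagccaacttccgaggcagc
NRCAM, chr7:108456437-108456686, minus strand: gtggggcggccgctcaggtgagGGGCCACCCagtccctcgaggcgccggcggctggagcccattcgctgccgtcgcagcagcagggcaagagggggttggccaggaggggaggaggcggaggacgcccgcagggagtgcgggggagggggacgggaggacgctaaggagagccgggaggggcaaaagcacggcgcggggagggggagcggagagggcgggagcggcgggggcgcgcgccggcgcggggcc
The VCAM1 window held 3 marked matches. They were GGGATTTCC at -62 to -54 from the start, GGGTTTCCC at -77 to -69, and GGCTTTTCC read on the opposite strand at -219 to -211. ICAM1 had GGAAATTCC at -186 to -178, a stretch that matches on both strands. The CD44 window held neither pattern. Of the 3 NRCAM windows, only the one printed held either marked pattern, with GGGCCACCC at -228 to -220. Another had the AP-1-like TGAGTCA at -60 to -54. The TATA motif TATAAA lay at -29 to -24 in VCAM1, with matches on the opposite strand at -31 to -26 and -205 to -200, and at -30 to -25 in ICAM1. The ALCAM window and both L1CAM windows held no match to the 4 motifs searched on both strands, which were these and TGANTCA. Among 35116 windows of the same length, GGNNNTTCC was found in 17.1%, GGGNNNCCC in 14.9%, TGANTCA in 6.57% and TATAAA in 10.7%. A match describes the letters and does not show that a factor was bound.

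Signals are log2 values, so a difference of 1 is a 2-fold change. The median signal of an array was 6.15 to 6.22 for ZHX2 and 1.87 to 1.89 for p65, and levels were never compared between the tables. Between probe sets, levels served to pick the brightest of a gene, to filter dim ones and to describe signals against the array medians. Arrays of a group differed by an SD of 0.197 to 0.239 over all genes in the ZHX2 table and of 0.40 to 0.427 in the p65 table, and so few arrays limit the precision. Both targeted genes were lower in their own knockdown. ZHX2 stood at 10.58 and 10.43 in scrambled cells, at 9.35 and 9.38 under hairpin 44 and at 8.93 and 9.02 under hairpin 45. Its differences were -1.14 (SE 0.0862, limma adjusted p = 0.00528) and -1.53 (SE 0.0862, limma adjusted p = 0.000926). The hairpin 44 call ended without either hairpin 44 array (adjusted p = 0.0663 and 0.0648). RELA stood at 7.64 and 7.67 with control shRNA and at 5.04 and 5.28 with p65 shRNA, a difference of -2.50 (SE 0.178). Its limma adjusted p was 0.0733, and 0.00132 when the moderation followed the intensity trend. With the ZHX2 hairpins RELA was higher, at 9.34 and 9.23 in scrambled cells against 9.64 and 9.68 under hairpin 44 and 9.82 and 9.75 under hairpin 45. The mean difference was 0.44 (SE 0.0689, limma adjusted p = 0.0112), a call that ended without scrambled replicate 2 (adjusted p = 0.0554). ZHX2 differed by -0.09 (SE 0.175) with p65 shRNA and was not called.

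VCAM1 was lower in both knockdowns and, of the 7 genes, stood furthest below its control in each. In the ZHX2 table its signal was 9.61 and 9.51 in scrambled cells, 8.56 and 8.57 with hairpin 44, and 7.53 and 7.31 with hairpin 45. Every hairpin array was below both scrambled arrays, and both hairpin 45 arrays were below both hairpin 44 arrays. The difference from scrambled was -0.995 (SE 0.0989) with hairpin 44, or 1.99-fold lower, and -2.14 (SE 0.0989) with hairpin 45, or 4.41-fold lower. Averaged over both hairpins it was -1.57 (SE 0.0856), and 27 of the 22432 genes had a lower value. Its signal was 8.24 and 8.11 on the control arrays of the p65 table and 5.24 and 5.29 with p65 shRNA, with no overlap. That is a difference of -2.91 (SE 0.168), or 7.53-fold, and 3 genes had a lower value.

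ICAM1, the ligand of LFA-1, was also lower in both tables, but by little. Its signal was 10.15 and 10.12 in scrambled cells, 9.80 and 9.84 with hairpin 44, and 9.78 and 9.85 under hairpin 45. The scrambled arrays were the highest pair, and the arrays of the hairpins overlapped each other. The differences from scrambled were -0.32 and -0.33 (SE 0.0734 each), 1.25-fold lower with either hairpin. With p65 shRNA ICAM1 stood at 8.38 and 8.34, below the control arrays at 8.94 and 8.73. The difference was -0.48 (SE 0.175), or 1.39-fold lower.

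CD44 was higher with both ZHX2 hairpins. By the brighter probe set, 16723614, its signal was 9.12 and 9.16 in scrambled cells, 10.04 and 10.04 with hairpin 44, and 9.94 and 9.93 under hairpin 45. The hairpin arrays all lay above the scrambled arrays, by 0.90 with hairpin 44 and 0.79 with hairpin 45 (SE 0.0702 each), and 144 genes had a higher mean difference than its 0.84. The second probe set, 16723653, is given to CD44 only by the annotation of the p65 table's platform. It read 7.68 and 7.53 in scrambled cells, 8.58 and 8.64 with hairpin 44, and 8.83 and 8.70 with hairpin 45. Both probe sets were therefore higher with both hairpins, the second by 1.004 and 1.16 (SE 0.0917 each).

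After p65 knockdown the CD44 probe sets differed. The brighter one read 6.31 and 6.32 with control shRNA and 5.11 and 5.23 with p65 shRNA, a difference of -1.14 (SE 0.167), or 2.21-fold lower. The second read 1.55 and 2.07 on the control arrays and 1.65 and 2.00 with p65 shRNA. These values overlap, lie near the array medians of 1.87 to 1.89, and differ by 0.02 (SE 0.252). With the mean of both probe sets the p65 difference was -0.56. So CD44 was above its control with the ZHX2 hairpins and, by the brighter probe set, below its control with p65 shRNA.

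**Figure D1:**
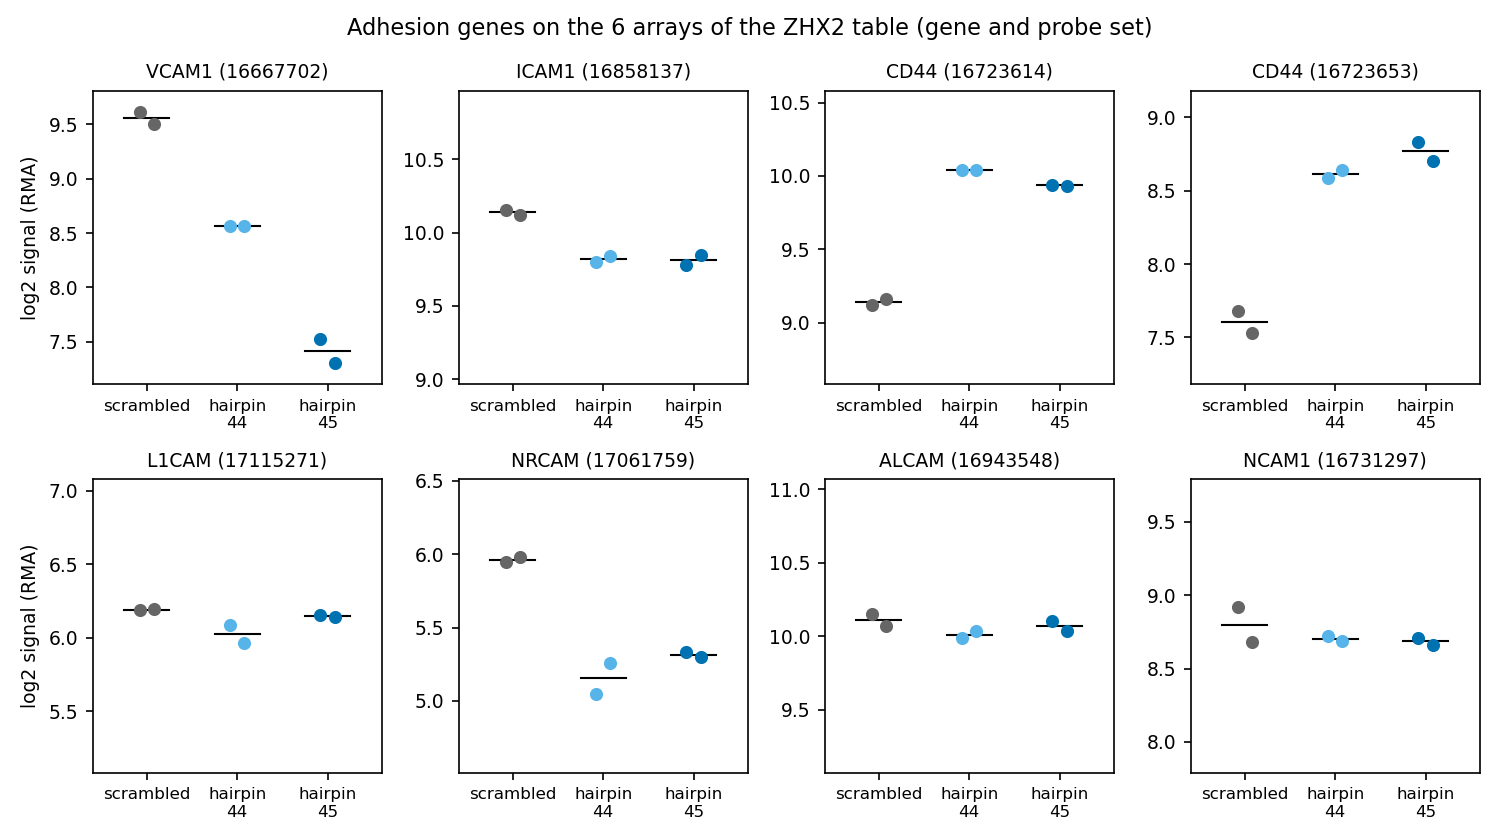
Log2 signal (vertical axes) of the 8 probe sets on the 6 arrays of the ZHX2 table, with 1 point per array and a line at the mean of each group of 2 (horizontal axes). VCAM1 has means of 9.56 (scrambled), 8.56 (hairpin 44) and 7.42 (hairpin 45), and both CD44 probe sets are higher with either hairpin; vertical axes differ by panel and do not start at 0.

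NRCAM, a partner of neuropilins and ankyrins in axons, was lower with the ZHX2 hairpins and higher with p65 shRNA. Its signal was 5.95 and 5.98 in scrambled cells, 5.05 and 5.26 with hairpin 44, and 5.33 and 5.30 with hairpin 45, all below the array medians of that table. The hairpin arrays did not overlap the scrambled arrays. Their differences were -0.81 and -0.65 (SE 0.0943 each). Under control shRNA NRCAM read 3.26 and 2.21, and under p65 shRNA 5.58 and 5.11. Both knockdown arrays were above both control arrays, which themselves lay more than a log2 unit apart. The difference was 2.61 (SE 0.387), or 6.11-fold higher, and only 4 of the 22432 genes had a higher value.

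L1CAM, which names the same family, differed little in the ZHX2 table. It read 6.19 and 6.19 in scrambled cells, 6.09 and 5.97 with hairpin 44, and 6.16 and 6.14 with hairpin 45, a mean difference of -0.10 (SE 0.0672). All 4 hairpin arrays were below the scrambled arrays. With p65 shRNA it read 4.95 and 3.998, against 3.55 and 3.994 with control shRNA. Only 1 p65 array stood clear of the controls, and the difference was 0.70 (SE 0.360), or 0.23 to 1.18 with 1 array left out (0.23 without p65 replicate 1, 1.18 without p65 replicate 2).

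ALCAM differed by little more than its standard error in the ZHX2 table and by less in the p65 table. It read 10.15 and 10.07 in scrambled cells, 9.99 and 10.03 with hairpin 44, and 10.10 and 10.03 under hairpin 45. The hairpin 44 arrays lay just below both scrambled arrays and the hairpin 45 arrays overlapped them. For p65 it read 8.09 and 7.71 with control shRNA and 8.12 and 8.02 with p65 shRNA, which overlap. Its differences were -0.07 (SE 0.0668) over both ZHX2 hairpins and 0.17 (SE 0.201) with p65 shRNA.

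NCAM1 was close to its control in the ZHX2 table and lower with p65 shRNA. It read 8.92 and 8.68 in scrambled cells, 8.72 and 8.68 with hairpin 44, and 8.71 and 8.66 under hairpin 45. The scrambled arrays were further apart than the hairpin arrays, and the mean difference was -0.10 (SE 0.0864), or 0.02 without scrambled replicate 1. With p65 targeted, against control, NCAM1 read 5.35 and 5.12 with control shRNA and 4.49 and 4.59 with p65 shRNA. These did not overlap, and the difference was -0.69 (SE 0.180), or 1.61-fold lower.

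**Figure D2:**
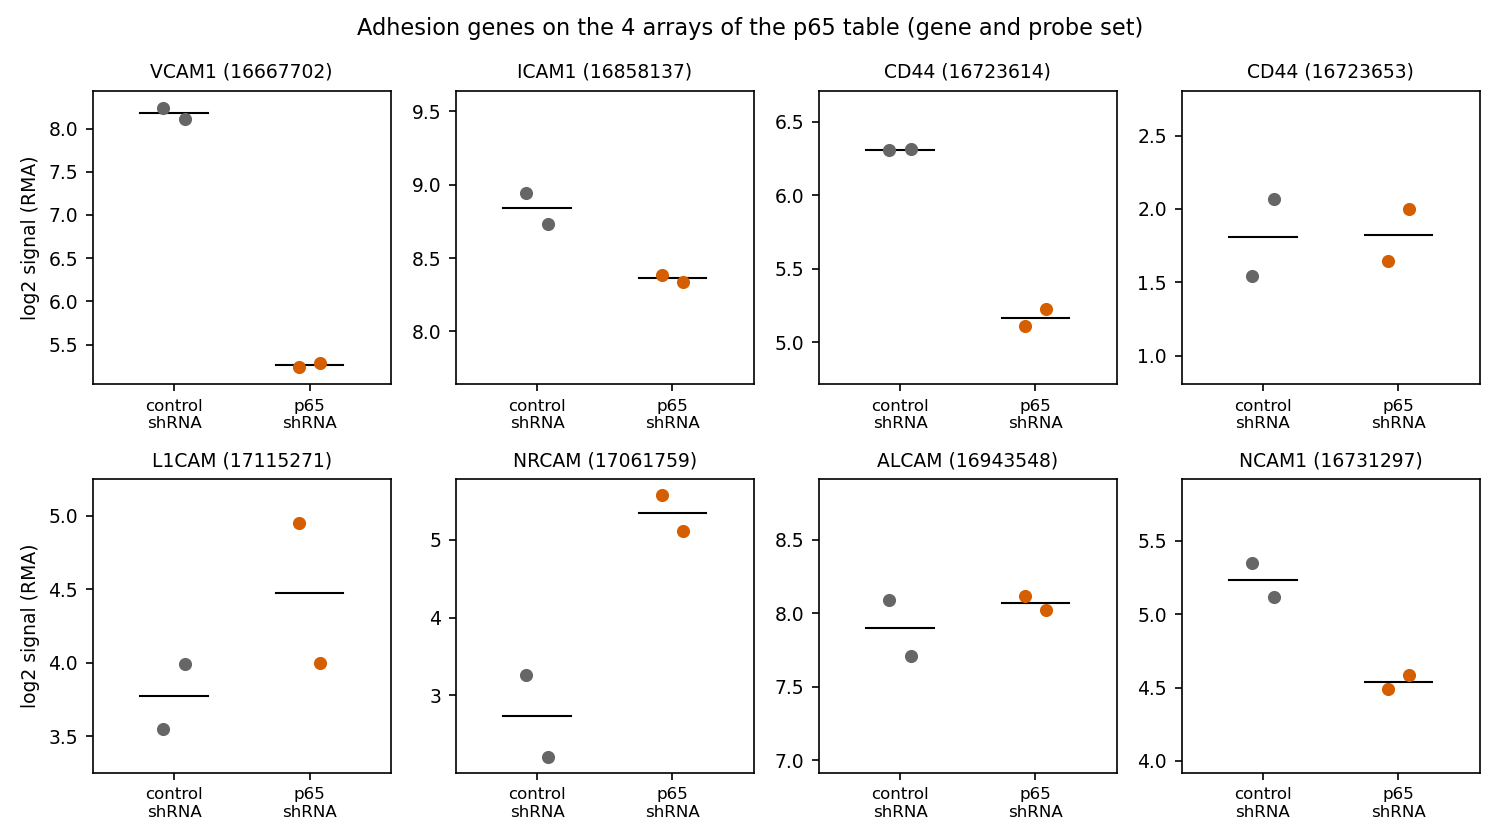
Log2 signal (vertical axes) of the 8 probe sets on the 4 arrays of the p65 table, with 1 point per array and a line at the mean of control shRNA or p65 shRNA (horizontal axes). VCAM1 has means of 8.18 with control and 5.26 with p65 shRNA, NRCAM of 2.73 and 5.35, and the dimmer CD44 probe set overlaps between the groups; vertical axes differ by panel and do not start at 0.

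Against scrambled, 4 of the 7 genes were called by limma for the mean of both hairpins (adjusted p under 0.05), where 18.3% of all genes were called. CD44 was higher, where 11.9% of all genes were called higher, and VCAM1, ICAM1 and NRCAM were lower, where 6.41% were called lower. Over all genes the higher share of the calls was 64.9%, or 73.0% after median centring and 53.2% after quantile normalization. With hairpin 44 there were 3 such genes (7.65% of all genes), since ICAM1 was not called, and with hairpin 45 there were 4 (20.1%). ICAM1 lost its call in the mean of both hairpins without any 1 of the 6 arrays. Without scrambled replicate 2 the hairpin 44 count was 1, and without either hairpin 44 array it was 0. Without either hairpin 45 array the hairpin 45 count was 2. These counts use the contrast that chose the genes, so they describe the genes and test nothing. Taken as ranges, 5 of the 7 genes had all 4 hairpin arrays on one side of both scrambled arrays (1 above, 4 below), as had 38.3% of all genes (21.9% above, 16.4% below). The median difference of the 7 was -0.10, beside 0.00 (-0.00425) over all genes.

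For p65 limma called 0 of the 7 genes, as it called 0 of all 22432 (0%). At an unadjusted p under 0.05 there were 5 of the 7, and 14.3% of all genes. With an intensity trend in the moderation 3 of the 7 were called, VCAM1 and CD44 lower and NRCAM higher, where 3.86% of all genes were called, 2.49% lower and 1.37% higher. The p65 arrays were apart from the control arrays for 6 of the 7 genes, 2 above and 4 below, as for 46.0% of all genes (23.4% above, 22.7% below). The 2 tables share no arrays. VCAM1 and ICAM1 were lower in both, CD44 and NRCAM stood on opposite sides of their controls, and the difference between the tables was not tested.

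**Figure D3:**
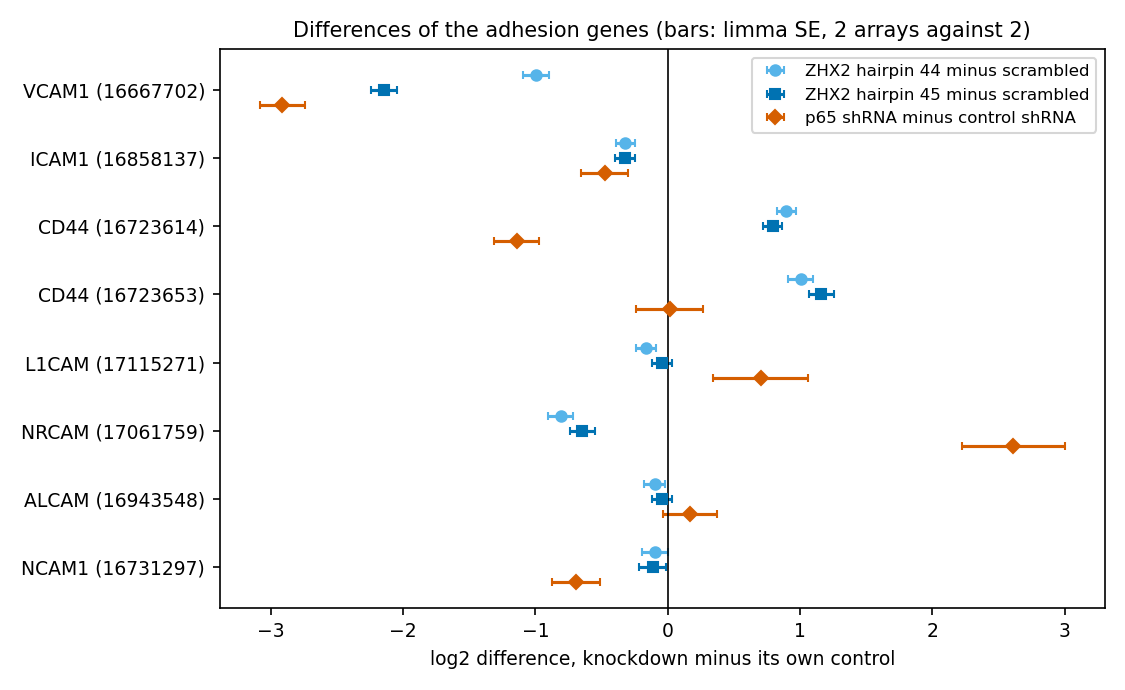
Log2 difference from the matching control (horizontal axis) for each probe set (vertical axis), with ZHX2 hairpin 44 as circles, hairpin 45 as squares and p65 shRNA as diamonds, and bars showing the limma SE for 2 arrays against 2. The hairpins share their scrambled arrays. VCAM1 lies to the left in all 3, CD44 at 0.90, 0.79 and -1.14, and NRCAM at -0.81, -0.65 and 2.61.

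Among the 7 genes limma called VCAM1 alone between the ZHX2 hairpins. This comparison leaves the scrambled arrays out of the difference and was not among the contrasts named in choosing the genes. The genes were still chosen with their responses in these same data known, so its p-values are not independent of that choice. VCAM1 was lower with hairpin 45 than with hairpin 44 (difference -1.15, SE 0.0989, limma adjusted p = 0.0208), 2.21-fold, where 0.397% of all genes were called, 0.267% lower. The call needs the spread of all 6 arrays. With each array left out in turn the difference ran from -1.26 to -1.04 and the adjusted p from 0.0778 to 0.207, so the call ended in all 6 cases. It also ended with only the hairpin arrays fitted (adjusted p = 0.078). The targeted gene, ZHX2, was lower with hairpin 45 as well (difference -0.39, SE 0.0862), which did not pass (limma adjusted p = 0.152). The other members were not called. CD44 differed by -0.10 (SE 0.0702, limma adjusted p = 0.539), with 0.16 (SE 0.0917) for its second probe set. NRCAM differed by 0.16 (SE 0.0943) and L1CAM by 0.12 (SE 0.0776). ALCAM, NCAM1 and ICAM1 differed by 0.06, -0.02 and -0.01, with SE from 0.0734 to 0.0997. A difference that misses the threshold does not show that the hairpins act alike.

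Over the 10 arrays, with each value taken from the mean of its own controls, the genes whose pattern lay closest to VCAM1 were LRRC37A3, the ferroxidase ceruloplasmin (CP) and the C-type lectin CLEC4E. Their Euclidean distances were 1.36, 1.41 and 1.65, against a median of 5.35 over all genes. CP differed by -1.04 and -1.43 with hairpins 44 and 45 and by -3.10 with p65 shRNA. Closest to ICAM1 were ARL6IP5, FRYL and RERE (distances 0.129, 0.148 and 0.238, median 1.202). Closest to CD44 were the spindle checkpoint gene MAD2L1, the DNA primase subunit PRIM1 and the cell cycle phosphatase CDC25A (0.480, 0.487 and 0.525, median 2.44). MAD2L1 differed by 0.66 and 0.93 with the hairpins and by -1.28 with p65 shRNA. These likenesses are descriptions over arrays that share controls.

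Other genes of cell adhesion were taken from lists written from general knowledge, but with earlier results of these data known. The counts and adjusted p-values of all these lists are therefore descriptions. The list around CD44 and hyaluronan held calls in both directions after ZHX2 knockdown. Of 17 measured, 5 rose and 5 fell by limma for the mean of both hairpins, where 11.9% of all genes rose and 6.41% fell, and the median difference was 0.00 (0.00103). HAS2, a hyaluronan synthase, rose from 6.51 and 6.46 to 6.89 and 6.87 with hairpin 44 and to 7.67 and 7.78 with hairpin 45. Its mean difference was 0.82 (SE 0.0675, limma adjusted p = 0.00229). Ezrin (EZR), which ties CD44 to actin, rose by 0.42 (SE 0.0605, limma adjusted p = 0.00867). SPP1, the CD44 ligand osteopontin, fell from 12.08 and 12.07 to 11.29 and 11.33 with hairpin 44 and to 10.36 and 10.44 with hairpin 45. Its mean difference was -1.22 (SE 0.0643, limma adjusted p = 0.00094). The hyaluronan-binding TNFAIP6 fell by 0.81 on average (difference -0.81, SE 0.0797, limma adjusted p = 0.00335). It was 7.84 and 7.81 in scrambled cells, 7.96 and 7.91 with hairpin 44, and 6.201 and 5.999 with hairpin 45, so its decrease lay with hairpin 45.

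Between the hairpins 4 of the listed genes differed by limma, all further from scrambled with hairpin 45. Of 17 hyaluronan genes 1 was higher and 2 were lower with hairpin 45, and of 16 cadherins and catenins 1 was lower. Over all genes 0.397% were called, 0.267% lower. TNFAIP6 differed by -1.84 (SE 0.0920, limma adjusted p = 0.00646), SPP1 by -0.90 (SE 0.0742, limma adjusted p = 0.0207) and HAS2 by 0.84 (SE 0.0779, limma adjusted p = 0.0269). The kidney cadherin CDH6 differed by -1.19 (SE 0.0726, limma adjusted p = 0.00816). The calls of HAS2 and SPP1 ended with the replicate block, and all 4 calls ended with only the hairpin arrays fitted. As for VCAM1, leaving out any 1 of the 6 arrays ended these calls (adjusted p from 0.0561 to 0.237), except that TNFAIP6 kept its call without hairpin 45 replicate 1 (adjusted p = 0.0432).

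Cadherins and catenins that passed the test all fell after ZHX2 knockdown, 5 of 16 measured, where 6.41% of all genes fell and 11.9% rose. The list median was -0.03. CDH6 fell from 11.53 and 11.58 to 10.25 and 10.19 with hairpin 44 and to 9.04 and 9.03 with hairpin 45, a mean difference of -1.92 (SE 0.0628, limma adjusted p = 0.000501). CDH16, the kidney-specific cadherin, fell by 1.11 (difference -1.11, SE 0.0711, limma adjusted p = 0.00145). Of 15 shedding proteases and their inhibitors 3 fell and 0 rose, against the same shares of all genes, with a median of -0.07. MMP2, a gelatinase, fell by 1.003 (difference -1.003, SE 0.0739, limma adjusted p = 0.00191), while its dimmer probe set differed by -0.11. ADAM12 fell by 0.34 (difference -0.34, limma adjusted p = 0.0199) but lost its call without any 1 array (0.0519 to 0.072).

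Of 35 other immunoglobulin-superfamily molecules 2 rose and 3 fell, where 11.9% of all genes rose and 6.41% fell, with a median of -0.04. ICAM3 rose by 0.43 and the poliovirus receptor PVR by 0.45, and each lost its call in 5 of the 6 fits that left out an array (highest adjusted p 0.071 and 0.0782). The contactin CNTN6 fell by 0.89 (difference -0.89, SE 0.137, limma adjusted p = 0.0105), a call lost without either scrambled array (adjusted p up to 0.058), and JAM2 fell by 0.61 (difference -0.61, SE 0.105, limma adjusted p = 0.0143), lost without scrambled replicate 2 (0.0627). Both lay below the array medians on all 6 arrays, with CNTN6 at 5.80 and 5.64 and JAM2 at 5.52 and 5.81 in scrambled cells, and neither passed the filter on dim probe sets. Among 9 partners of the L1 family 2 fell and 0 rose, against those same shares, with a median of -0.03. They were the semaphorin receptor NRP2 at -0.84 (SE 0.0650, limma adjusted p = 0.00209) and the semaphorin SEMA3A at -0.70 (SE 0.110, limma adjusted p = 0.011). SEMA3A read 7.79 and 7.46 in scrambled cells, 7.38 and 7.42 with hairpin 44, and 6.37 and 6.53 with hairpin 45. Its decrease thus lay mainly with hairpin 45, though the difference between the hairpins (-0.95) was not called. None of 9 leukocyte integrin subunits, the receptors for VCAM1 and ICAM1, and none of 3 selectin genes was called by limma, 0 of each at an unadjusted p under 0.05, which 32.2% of all genes passed. With an intensity trend, which called 26.2% of all genes, 1 integrin subunit, ITGB1, was lower at -0.13.

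With p65 shRNA limma called 0 of the listed genes, as it called 0 of all genes. With an intensity trend 7 were called, where 3.86% of all genes were, 2.49% lower and 1.37% higher. Of 17 measured hyaluronan genes 1 was higher and 3 were lower. Of 16 cadherins and catenins 1 was lower, and of 15 proteases and inhibitors 1 was higher and 1 lower. The other lists held 0 calls. In the CD44 and hyaluronan list the hyaluronan receptor HMMR stood at 7.73 and 8.07 with control shRNA and at 5.22 and 5.44 with p65 shRNA, a difference of -2.57 (SE 0.167, limma trend adjusted p = 0.00132). EZR was lower, at -0.76 (SE 0.0941, limma trend adjusted p = 0.00592), and SPP1 was higher, at 1.05 (SE 0.176, limma trend adjusted p = 0.0187). Like CD44, HMMR, EZR and SPP1 thus stood on opposite sides of their controls in the tables, and the difference between the tables was not tested. Over both ZHX2 hairpins HMMR rose by 0.40 (SE 0.0635, limma adjusted p = 0.0111), a call that ended without scrambled replicate 2 (adjusted p = 0.054). The proteoglycan SRGN was lower in both, at -2.16 with p65 shRNA and -0.36 over the ZHX2 hairpins. Its call over the hairpins ended in 5 of the 6 fits without an array. That call also ended with the replicate block, all arrays kept (limma adjusted p = 0.051). With p65 shRNA N-cadherin (CDH2) was lower at -0.57, and ADAM10, a protease that sheds CD44 and L1CAM, was lower at -0.61. The inhibitor TIMP2 was higher there at 0.83 (limma trend adjusted p from 0.0149 to 0.0233 for these genes). TIMP2 was lower over the ZHX2 hairpins (difference -0.30, limma adjusted p = 0.0344), a call that ended without any 1 array (adjusted p from 0.0717 to 0.123). With all arrays kept, the TIMP2 call also ended after median centring (limma adjusted p = 0.0563) and with the replicate block (limma adjusted p = 0.0626). At an unadjusted p under 0.05, 5 of 17 hyaluronan genes, 2 of 35 immunoglobulin-superfamily genes, 2 of 16 cadherins and catenins and 3 of 15 proteases and inhibitors differed, besides 1 each of the integrin, selectin and L1 partner lists, where 14.3% of all genes passed.

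**Figure D4:**
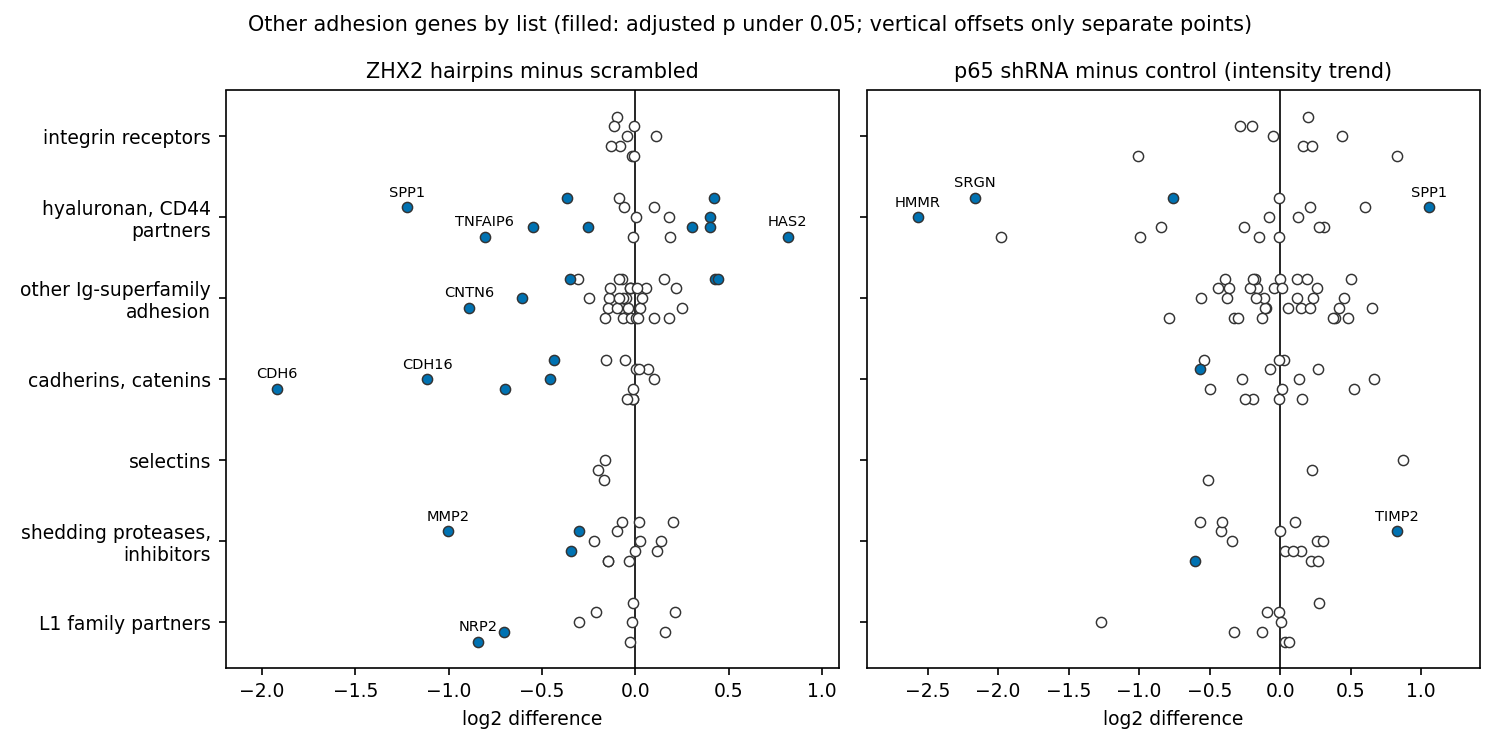
Log2 difference (horizontal axes) of the genes in 7 adhesion lists (vertical axes), for the mean of both ZHX2 hairpins on the left and p65 shRNA on the right. Filled points passed an adjusted p under 0.05, by limma on the left and with an intensity trend on the right, where limma without the trend called 0. CDH6, SPP1, CDH16 and MMP2 lie furthest to the left after ZHX2 knockdown and HMMR and SRGN after p65 knockdown.

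All 9 measured markers of clear-cell renal carcinoma lines were above the array medians in both tables, with mean signals of 9.71 to 10.11 in the ZHX2 table. Of them 1 rose (KRT18) and 4 fell (CDH6, PAX8, NNMT and PAX2) after ZHX2 knockdown, where 11.9% of all genes rose and 6.41% fell. An array median runs over all 53617 probe sets, 27196 of them without a gene. Lying above it does not show that a marker was expressed. Some markers of other cell types were above it too, so this position alone does not set the cells apart. In the ZHX2 table these were 4 of 6 neuronal, 3 of 5 fibroblast, 3 of 7 leukocyte and 1 of 9 endothelial markers, with mean signals of 7.19 to 7.53, 5.67 to 6.03, 5.48 to 5.62 and 5.51 to 5.64. In the p65 table they were 4 of 6, 4 of 5, 3 of 7 and 2 of 9, with mean signals of 3.59 to 3.76, 2.91 to 3.34, 1.73 to 2.13 and 1.39 to 1.58. After ZHX2 knockdown 0 endothelial or leukocyte markers were called by limma. At an unadjusted p under 0.05 there were 0 and 1, where 32.2% of all genes passed. With an intensity trend, which called 26.2% of all genes, 0 of either were called. Among the 5 fibroblast markers limma called 1 lower (LUM), and among the 6 neuronal markers 1 lower (NEFL), where 6.41% of all genes fell. All arrays came from the 1 line 786-O, so the lists describe that line, and the presence of other cells was not tested.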

How the data were processed

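The deposited values are log2 signals made with RMA, per the submitters' processing notes, in 2 tables of 53617 probe sets that share identifiers, on 6 and 4 arrays. RMA corrects background, normalizes and summarises probes, which narrows differences between arrays. Software, version, annotation and genome build were not given in the sources used here. Of the probe sets, 24480 had 1 gene in the platforms' annotations, 1842 several, 99 different genes and 27196 none, and 600 symbols were updated through RefSeq. For 1103 of the 22432 genes with over 1 probe set the brightest was used. Each table was fitted apart in R 4.3.3 with limma 3.58.1, without intensity trend, on 3 and 2 residual degrees of freedom, with Benjamini-Hochberg adjustment over all genes and a threshold of 0.05. The fit was tested on simulated data.

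The members and gene lists were chosen with earlier results of these data known. Named from each list were up to 2 called genes per direction with the smallest p, and for VCAM1, ICAM1 and CD44 the 3 genes nearest in pattern. NF2, HAS3 and other called list genes are counted but not described, and ITGB1, KRT18, PAX8, PAX2, NNMT, LUM, NEFL and SRGN were named after their values were seen. As alternatives, arrays were centred on their medians or quantile normalized, limma was moderated robustly or along an intensity trend, dim probe sets were filtered, probe sets were averaged, the replicate block was added, the fit was limited to the arrays of a contrast, and arrays were left out in turn.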

Additional observations from a re-analysis of the deposited data

Results flagged for a closer look

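VCAM1 differed between the ZHX2 hairpins by -1.15 (hairpin 45 minus hairpin 44, limma adjusted p = 0.0208), lower on both hairpin 45 arrays than on both hairpin 44 arrays. CD44, L1CAM and NRCAM stood on opposite sides of their controls in the tables, on every array. CD44 was 0.84 above scrambled over both ZHX2 hairpins and below control with p65 shRNA (difference -1.14). L1CAM differed by -0.10 and 0.70 (0.23 to 1.18 with 1 p65 or control array left out), and NRCAM by -0.73 and 2.61. The difference between the knockdowns was not tested for these 3 genes, since the tables were normalized apart. The L1CAM values rest on gaps as small as that between 3.998 with p65 shRNA and 3.994 with control shRNA, and the second CD44 probe set did not differ beyond its spread with p65 shRNA (0.02, SE 0.252).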

How the results depend on the processing

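The count of called members over both ZHX2 hairpins was 3 to 4 under 14 alternatives. NRCAM did not pass the filter on dim probe sets in the ZHX2 table, so its call is absent under that alternative. With hairpin 44 it ran from 0 to 3 and with hairpin 45 from 2 to 3 when an array was left out. VCAM1, the 1 member called between the hairpins, was not called (0) with the replicate block (adjusted p = 0.0731), with only the 2 groups compared, or with any array left out (0 to 0). In the p65 table the count was 3 with an intensity trend, and that setting called 7 listed genes and 3.86% of all genes there. With it RELA was called in the p65 table besides ZHX2 in its own, so that 2 targeted genes passed in their own knockdown. The listed genes called after ZHX2 knockdown numbered 25, with 12 to 19 when an array was left out and at most 32 under any alternative. Uncalled differences between the hairpins changed sign for ICAM1 (0.01635 after median centring, -0.0392 to 0.0284 with an array left out), CD44 (0.0265 with the mean of probe sets), ALCAM (-0.00158 after quantile normalization) and NCAM1 (0.00321 after median centring, -0.0426 to 0.00558 with an array left out). The cause was not tested. Deviations of arrays with the same replicate number were nearly uncorrelated over all genes (correlations from -0.0263 to 0.0542). That cannot show whether the arrays were handled in pairs, which the labels do not say, and the replicate block was used as an alternative. Fitting every probe set was chosen after seeing the data. No detection measure was used, so dim probe sets limit NRCAM, L1CAM, CNTN6 and JAM2.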
